A study of Sus scrofa with 4 samples.

Results

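Mast cells are tissue-resident immune cells, and 8 genes that serve them were followed in sorted lung cells of the pig: the receptor KIT, its ligand KITLG, the granule protease CPA3, the IgE receptor subunits FCER1A and MS4A2, the histamine enzyme HDC, the prostaglandin enzyme HPGDS and the transcription factor GATA2. They were chosen by gene name, and 7 of the 8 were found among the 29263 gene rows of the count tables. CPA3 matched no gene name or mapped identifier there and is not analysed here.

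Mast cells mature in tissues such as the airway wall under the influence of KIT ligand (stem cell factor), which is made by neighbouring fibroblasts, endothelium and epithelium and binds the receptor tyrosine kinase KIT on the mast cell. They carry IgE on a high-affinity receptor built from an alpha chain (FCER1A), a signal-amplifying beta chain (MS4A2) and a gamma chain (FCER1G). When antigen crosslinks the IgE, they release histamine and proteases from granules and make prostaglandin D2 and leukotrienes. GATA2 is needed for mast cell development but is also used by endothelium and blood progenitors, so none of the 8 genes marks mast cells by itself.

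All pigs bore LGR5-H2B-GFP, a knock-in whose fluorescent histone reports transcription of LGR5, a receptor for R-spondins. Minced lung was washed to lower the content of blood and immune cells, per the labels, so immune genes come from what was left after that step. After enzymatic digestion, propidium iodide served to leave out dead cells, and a sort gave GFP-HI, the brightly fluorescent cells, and GFP-NEG, the cells with no reporter signal. Both fractions came from knock-in animals, with 2 biological replicates each and 4 libraries in all. The labels' protocol covers adult and fetal lung, gives no age, and does not say how many animals stand behind a replicate. The name of the deposited comparison table reads as adult pig. The comparison asks how the transcriptome of LGR5-reporting lung cells differs from that of the remaining cells.

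Library totals ran from 24200550 to 24689986 counts in GFP-HI and from 6292253 to 7045652 in GFP-NEG, so that GFP-HI was 3.67 times as deep on average and depth and fraction cannot be told apart by design. LGR5, the check of the sort, stood at 146 and 152 CPM (counts scaled to library size) in GFP-HI, against 1.55 and 0.767 CPM without the reporter. Of 27 genes restricted to other organs, 11 and 5 were at 0 in GFP-NEG replicates 1 and 2 and 13 and 14 in the GFP-HI replicates, and their 95th percentile was 26.2 and 8.66 CPM in GFP-NEG against 6.19 and 3.74 CPM in GFP-HI. Of these genes 10 were tested, of which 4 were called lower in GFP-HI and 0 higher. APOA2, 1 of the 4, had 0 counts in both GFP-HI libraries and 25 and 65 in GFP-NEG. More genes had a count in GFP-NEG, 24120 and 25985, than in GFP-HI, 18752 and 18392. The part of these differences in the mast cell values was not tested. The levels of the organ-restricted genes give the scale on which a low value of a mast cell gene has to be read. CPM rests on the library total times its TMM scaling factor. It is not corrected for gene length, so levels are compared between libraries for 1 gene. The exception is the rank of a gene among the organ-restricted genes of the same library. Gene length also enters that rank, which is therefore a rough guide only.

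Among the 7 genes found, 5 fell in GFP-HI, namely KIT, FCER1A, MS4A2, HDC and HPGDS. GATA2 rose, and KITLG did not pass the test. The test was edgeR's quasi-likelihood F test over 19682 genes with a Benjamini-Hochberg adjusted p-value under 0.05. All 7 passed the filter on low counts. The background to this count is that 27.6% of all tested genes were called lower and 8.35% were called higher in GFP-HI. In the same 6 genes the 2 fractions did not overlap, which held downward for 42.0% and upward for 27.7% of all tested genes. The median log2 fold change, GFP-HI minus GFP-NEG, was -2.93 over the 7 genes and -0.25 over all tested genes. In bulk RNA of a sorted fraction, fewer mast cells and less of the RNA per cell cannot be told apart.

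**Figure D1:**
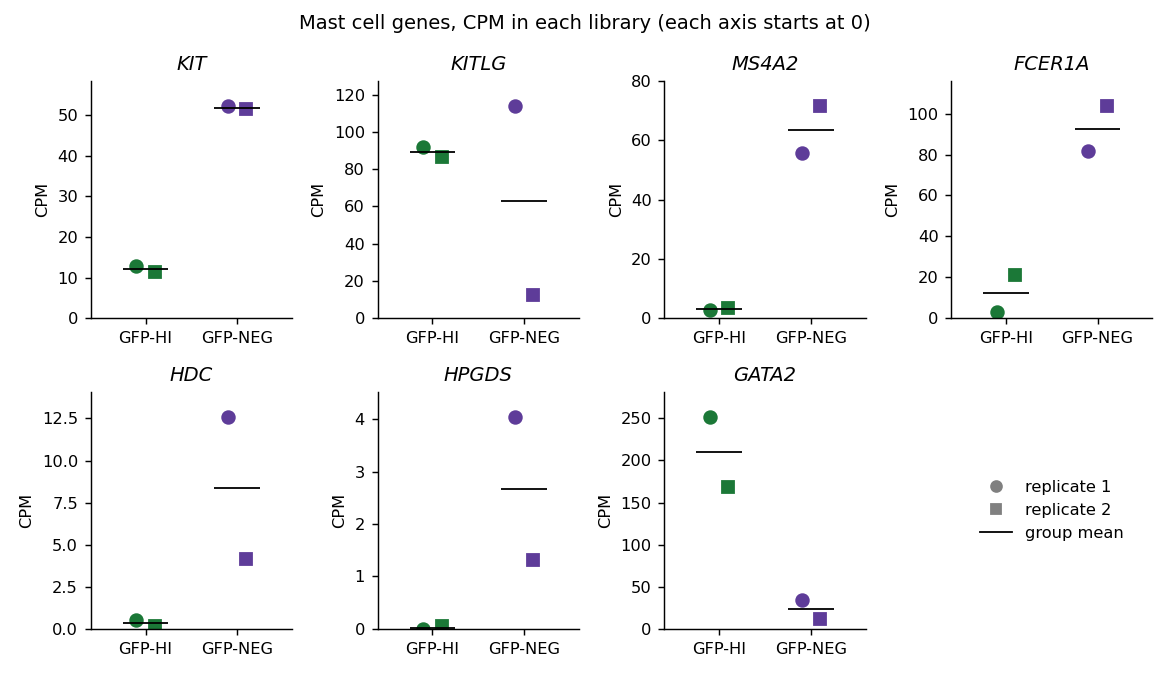
CPM of each gene in the 4 libraries, with GFP-HI in green, GFP-NEG in purple, replicate 1 as a circle, replicate 2 as a square and the group mean as a bar. KIT, MS4A2, FCER1A, HDC and HPGDS are lower in both GFP-HI libraries than in either GFP-NEG library, GATA2 is higher in both, and the GFP-NEG libraries of KITLG lie on either side of the GFP-HI libraries, at 114 and 12.7 CPM.

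KITLG encodes the soluble and membrane-bound ligand of KIT. It had 2034 and 1741 counts in the GFP-HI libraries, 92.2 and 86.3 CPM, and 732 and 116 counts in GFP-NEG, 114 and 12.7 CPM. The GFP-HI libraries were close to each other, while 1 GFP-NEG library lay above both of them and the other far below. GFP-HI minus GFP-NEG came to 0.50 ± 0.53 (SE) on the log2 scale and did not pass the test (adjusted p of 0.50). The difference was -0.30 within replicate 1 and 2.75 within replicate 2. Without GFP-NEG replicate 1 the fold change was 2.86 (adjusted p of 0.0044), and without GFP-NEG replicate 2 it was -0.39 (adjusted p of 0.85), so both its size and its direction depended on which GFP-NEG library was used. With the replicate block it was 1.21 (adjusted p of 0.14). The summed level of 10 fibroblast markers moved the same way between the GFP-NEG libraries, at 26530 CPM in replicate 1 and 9499 CPM in replicate 2. This was not particular to fibroblasts. Endothelial genes summed to 1468 and 612 CPM, epithelial genes to 131.5 and 87.0 CPM and macrophage genes to 2087 and 787 CPM, and blood progenitor genes dropped too. The sums for general leukocytes, dendritic cells, basophils and eosinophils, group 2 innate lymphoid cells and melanocytes moved the other way. The part of these cell types in the KITLG values was not tested.

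KIT, the receptor on mast cells and on some progenitor cells and melanocytes, gave 284 and 232 counts, or 12.9 and 11.5 CPM, in GFP-HI. The GFP-NEG libraries held 336 and 470 counts, or 52.2 and 51.5 CPM. Both fractions were tight, and they were far apart. KIT was 4.26-fold lower in GFP-HI by the group means, 12.2 ± 0.966 against 51.8 ± 0.455 CPM (SD, n = 2), or -2.09 ± 0.54 (SE) on the log2 scale (adjusted p of 6.0e-04). The difference was -2.01 within replicate 1 and -2.15 within replicate 2. This was the smallest of the 5 falls. The level that was left in GFP-HI was above all 27 organ-restricted genes in replicate 1 and above all but 1 of them in replicate 2. Leaving out GFP-HI replicate 2 took the call away at an adjusted p of 0.055 with a fold change of -1.92. Of the melanocyte genes, 3 had enough counts to be tested, PMEL, TYR and DCT, and none of them passed. Among those not tested, TYRP1 and MC1R were at 0 in both GFP-HI libraries. In GFP-NEG they had 2 and 19 counts and 4 and 14 counts. MLANA was at 0 in every library.

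FCER1A, the IgE-binding alpha chain, had 525 and 944 counts in GFP-NEG, 81.5 and 103 CPM. In GFP-HI it had 68 counts in replicate 1 and 428 in replicate 2, 3.08 and 21.2 CPM. The fractions did not overlap, but the GFP-HI libraries differed from each other by more than those of any other gene of the set with counts in both. GFP-HI minus GFP-NEG was -2.93 ± 0.55 (SE) in log2 units, at an adjusted p of 4.2e-06. It was -4.66 within replicate 1 and -2.28 within replicate 2. Without GFP-HI replicate 1 it was -1.97 at an adjusted p of 0.050, just past the threshold on the side of no call, and without GFP-HI replicate 2 it was -4.81. Dendritic cells and basophils can carry this chain as well. Of 7 tested dendritic cell markers 6 fell in GFP-HI, beside 27.6% of all tested genes. The dendritic cell markers summed to 14.4 and 15.3 CPM in GFP-HI against 164 and 208 CPM in GFP-NEG. Of 9 basophil and eosinophil markers only 4 were matched, and 2 of these, EPX and IL5RA, were under the filter. EPX had 1 and 0 counts in GFP-HI against 4 and 32 in GFP-NEG, and IL5RA 0 and 0 against 6 and 2. CEBPE, at 1 and 4 counts against 9 and 12, was called lower (-3.40 on the log2 scale, adjusted p of 0.029). CD200R1 did not pass, at -1.31.

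MS4A2, the beta chain and the member of the receptor found mainly on mast cells and basophils, had 58 and 69 counts in GFP-HI, 2.63 and 3.42 CPM. The GFP-NEG libraries held 360 and 652 counts, 55.9 and 71.5 CPM. All 27 organ-restricted genes were below MS4A2 in both GFP-NEG libraries, whereas 3 and 2 of them were above it in the GFP-HI libraries. It was 21.1-fold lower in GFP-HI, 3.02 ± 0.561 against 63.7 ± 11.0 CPM (SD, n = 2), which is -4.39 ± 0.60 (SE) on the log2 scale (adjusted p of 8.9e-11). The differences within replicates 1 and 2 were -4.34 and -4.33, and the fold change stayed between -4.51 and -4.06 when any 1 library was left out. MS4A2 had the lowest adjusted p of the set.

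HDC makes histamine from histidine. The GFP-HI libraries held 12 and 4 counts of it, 0.544 and 0.198 CPM, and the GFP-NEG libraries 81 and 38, 12.6 and 4.17 CPM. The fractions did not overlap, and in both of them replicate 1 was the higher. The log2 difference was -4.45 ± 1.09 (SE), at an adjusted p of 3.1e-04. The differences within replicates were -4.22 and -3.68. Without GFP-NEG replicate 1 the fold change was -3.41 and the call was lost (adjusted p of 0.097). In the GFP-HI libraries 7 and 10 of the 27 organ-restricted genes were above HDC.

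HPGDS, the haematopoietic enzyme that makes prostaglandin D2, was near the limit of detection. The GFP-HI libraries held 0 and 1 counts of it, and the GFP-NEG libraries 26 and 12, or 4.04 and 1.32 CPM. Over the pooled libraries the GFP-NEG level was 103 times the GFP-HI level, with an exact 95% interval from 17.4 to 4180 that covers counting error only. The adjusted p was 6.1e-04, and it was 0.074 without GFP-HI replicate 1. In GFP-NEG replicate 2 the gene was below 14 of the 27 organ-restricted genes.

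GATA2 ran against the rest. The GFP-HI libraries held 5546 and 3387 counts of it, 251 and 168 CPM, against 224 and 109 counts in GFP-NEG, 34.8 and 11.9 CPM. Both GFP-HI libraries were well above both GFP-NEG libraries. The log2 difference was 3.17 ± 0.61 (SE), at an adjusted p of 8.1e-06, or 8.97-fold by the group means, 210 ± 58.9 against 23.4 ± 16.1 CPM (SD, n = 2). It was 2.85 within replicate 1 and 3.80 within replicate 2, and it passed the test whichever library was left out, between 2.55 and 4.18. Of 12 genes of endothelium, a class that also uses GATA2, 10 were lower, beside 27.6% of all tested genes. ERG at 0.18 and PROX1 at -1.73 did not pass. The summed level of the 12 was 222 and 224 CPM in GFP-HI against 1468 and 612 CPM in GFP-NEG. The part of endothelium in the GATA2 values was not tested.

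In the RefSeq annotation of the pig, 1 further gene overlaps each of MS4A2, FCER1A and GATA2. The strand setting of the counting is not given in the sources used here, so reads of an overlapping partner cannot be told apart from theirs. In the authors' deposited table, which has 16250 genes, the values were -4.41 for MS4A2, -4.49 for HDC, -2.94 for FCER1A, -2.10 for KIT, 3.17 for GATA2 and 0.50 for KITLG on the log2 scale. Its adjusted p-values were 9.8e-04 or less for all of these but KITLG, at 0.64, and HPGDS is not listed in it. That table calls 8.2% of its genes higher and 11.2% lower.

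**Figure D2:**
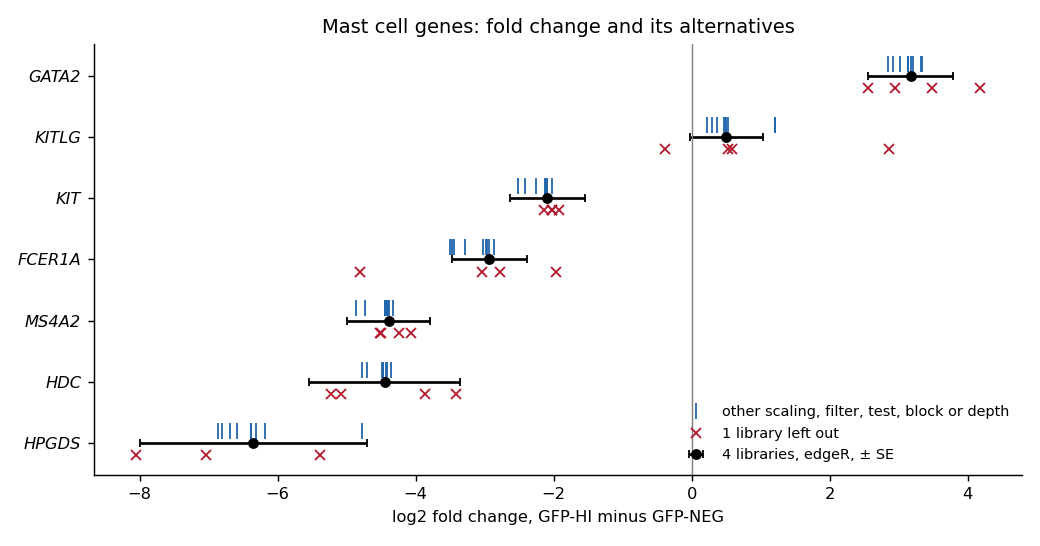
Log2 fold change (GFP-HI minus GFP-NEG) of each gene with its standard error in black, with blue ticks for other scalings, filters, tests, the replicate block and thinned depth, and red crosses for fits with 1 library left out. MS4A2 spans -4.86 to -4.06 in all, whereas KITLG runs from -0.39 to 2.86.

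Mast cells hold more than these genes, so 8 further lists with 120 genes were read from the same fit. Of these, 101 were matched and 97 tested, and 7 rose, 40 fell and 50 did not pass the test in GFP-HI. Their median log2 fold change was -1.15. The share that fell, 40 of 97, stands beside 27.6% of all tested genes, and the share that rose, 7 of 97, beside 8.35%.

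Granule genes were thinly covered. The tryptases, chymase and CTSG were not matched by name, which leaves the most specific mast cell products outside these data as used here. Of 12 granule and amine genes 6 were tested and 1 fell, beside 27.6% of all tested genes called lower. This was SRGN, the proteoglycan core that packs granules in many leukocytes. It was at 57.4 and 119 CPM in GFP-HI against 908 and 848 CPM in GFP-NEG (-3.31 on the log2 scale, adjusted p of 2.1e-04). SLC18A2, the transporter that loads histamine into granules, was at 2.4 and 5.4 CPM in GFP-HI against 1.55 and 3.62 CPM in GFP-NEG and did not pass the test. The call of SRGN held whichever library was left out. The list's median was 0.63, but 0.22 without GFP-NEG replicate 2, 0.19 with library size as the only scaling, 0.30 under upper-quartile scaling and 0.38 at thinned depth.

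Surface and lineage genes had 11 tested members, of which 5 fell and none rose, beside 27.6% and 8.35% of all tested genes. IL1RL1, the receptor for interleukin 33, was at 9.15 and 9.07 CPM in GFP-HI against 46.1 and 47.8 CPM in GFP-NEG, which is -2.36 in log2 units (adjusted p of 1.7e-04), close in size to KIT at -2.09. It is given for that reason, after its values were seen, and lies outside the naming rule. CSF2RB, the shared beta chain of the interleukin 3 and GM-CSF receptors, fell by 3.63, and IL9R, the interleukin 9 receptor, fell by 4.02 on the log2 scale. RGS13, a regulator of G-protein signalling in mast and B cells, was at 0 in both GFP-HI libraries, with 9 and 8 counts in GFP-NEG. In the GFP-NEG libraries 7 and 15 of the 27 organ-restricted genes were above it. Against a floor of 3 counts over the group, GFP-HI was at least 15.4-fold lower, and the call was lost under DESeq2 with the block (adjusted p of 0.18). ADCYAP1, a neuropeptide gene, had 1 count in GFP-HI and 21 in GFP-NEG, where 7 and 9 of the organ-restricted genes were above it. Its call was lost with the replicate block (adjusted p of 0.069), without a filter (0.057) and under DESeq2 (0.055). Without either GFP-HI library RGS13 and ADCYAP1 lost their calls (adjusted p of 0.12 to 0.20), as did ADCYAP1 without GFP-NEG replicate 1 (0.11) and IL9R without GFP-NEG replicate 2 (0.064). The median of the list was -2.18, but -0.47 without GFP-NEG replicate 2, -0.86 at thinned depth and -1.33 without GFP-HI replicate 2.

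The other transcription factors of the mast cell programme were split, with 5 of 13 tested lower and 1 higher. Beside these stand 27.6% and 8.35% of all tested genes. IKZF1 (-4.45), SPI1 (-3.84), LYL1 (-3.48), LMO2 (-3.02) and BHLHE40 (-1.74) fell. The values of IKZF1, SPI1 and LYL1 lay within the range of 8 general leukocyte genes, -4.51 to -3.21. MEIS2, a homeobox factor also used in mesenchyme, rose by 3.26, from 9.47 and 3.73 CPM in GFP-NEG to 54.2 and 71.7 CPM in GFP-HI. LYL1 had 5 and 0 counts in GFP-HI, and in GFP-NEG 7 and 11 of the 27 organ-restricted genes were above it. It lost its call with the replicate block (adjusted p of 0.16), without a filter (0.15) and under DESeq2 (0.17). The call was also lost without GFP-HI replicate 1, GFP-HI replicate 2 or GFP-NEG replicate 1. MITF, the melanocyte and mast cell factor that drives KIT and HDC, was at 55.9 and 70.5 CPM in GFP-HI against 39.1 and 22.6 CPM in GFP-NEG and did not pass the test (adjusted p of 0.11). TAL1 and GATA1, the partners of GATA2 in blood cells, did not pass either, and GATA1 had 3 and 34 counts in GFP-HI. The 7 factors that did not pass included STAT5A and STAT5B, which carry KIT and cytokine signals.

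In the signalling chain behind the IgE receptor, 13 of 19 tested genes fell and none rose, beside 27.6% and 8.35% of all tested genes. The median was -3.12. FCER1G, the gamma chain shared with other Fc receptors, was at 111 and 175 CPM in GFP-HI against 1074 and 623 CPM in GFP-NEG, which is -2.57 in log2 units (adjusted p of 0.0038). The kinases SYK, LYN and BTK fell by 3.97, 3.34 and 3.83, the exchange factor VAV1 by 4.03, the adaptor LCP2 by 3.83 and the phosphatase PTPN6 by 3.92 on the log2 scale. Many of these genes serve all leukocytes. ORAI1, a calcium channel of many cell types, was at -2.43 and fell too. The 6 genes that did not pass were PLCG1 at 0.29, FYN at 0.19, CBLB at 0.04, KCNN4 at -0.19, STIM1 at -0.71 and GAB2 at -1.23.

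Of 18 tested genes that carry the KIT signal inside the cell, 3 rose, 5 fell and 10 did not pass, beside 8.35% and 27.6% of all tested genes called higher and lower. The median of the list was -0.15, and its members ran from -3.76 to 2.08. PIK3CD, the leukocyte PI3-kinase subunit, had a log2 fold change of -3.76, and DUSP6, GRB2 and DOK1, which act nearer the receptor or on its kinase cascade, had -1.81, -1.44 and -1.40. The call of PIK3CD held whichever library was left out. GRB2 lost its call in all 4 such fits (adjusted p of 0.083 to 0.27). DUSP6 lost it in all but the fit without GFP-NEG replicate 2, with -1.07 (adjusted p of 0.23) without GFP-NEG replicate 1. DOK1 lost it in all but the fit without GFP-HI replicate 1, with -0.78 (adjusted p of 0.44) without GFP-HI replicate 2, and under DESeq2 (0.059). SPRED1 and SPRY2, inhibitors of the receptor tyrosine kinase pathway, rose by 2.08 and 1.98, and ETV1, a transcription factor downstream of KIT, rose by 1.55. ETV1 was at 136 and 145 CPM in GFP-HI against 87.6 and 8.77 CPM in GFP-NEG. Its call was lost with library size as the only scaling (adjusted p of 0.053), with a filter at 1 CPM (0.065), under DESeq2 (0.11) and at thinned depth (0.082). It was also lost in all leave-one-out fits but that without GFP-NEG replicate 1, where the value was 4.05, and without GFP-NEG replicate 2 it was 0.64 (adjusted p of 0.76). SPRED1 was at 1.41 without GFP-NEG replicate 2 (adjusted p of 0.31) and at 3.26 without GFP-NEG replicate 1, and SPRY2 lost its call without GFP-HI replicate 2 (0.12) and GFP-NEG replicate 2 (0.19).

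Of 9 tested genes for lipid mediators, 3 fell and 1 rose, beside 27.6% and 8.35% of all tested genes. TBXAS1, thromboxane synthase, fell by 4.02, and the leukotriene genes ALOX5AP and ALOX5 fell by 2.94 and 2.13 on the log2 scale. PLA2G4A, which releases arachidonic acid from membranes, rose by 1.58, from 44.6 and 23.4 CPM in GFP-NEG to 95.3 and 107 CPM in GFP-HI, and lost its call with library size as the only scaling (adjusted p of 0.061) and in all leave-one-out fits but that without GFP-NEG replicate 1 (0.051, 0.09 and 0.47). ALOX5AP was at -1.67 without GFP-NEG replicate 1 (adjusted p of 0.052), and ALOX5 at -1.67 without GFP-HI replicate 1 (0.078). LTC4S, the leukotriene C4 synthase of mast cells, and PTGS1 and PTGS2, which feed HPGDS, did not pass the test.

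Genes that receive or clear mast cell products included 10 tested members, with 4 lower and none higher, beside 27.6% and 8.35% of all tested genes. AOC1, an extracellular histamine-degrading oxidase, had 7 and 92 counts in GFP-NEG against 1 in all of GFP-HI. The pooled ratio was 269 with an exact 95% counting interval from 47.1 to 10700. In the GFP-NEG libraries 7 and 1 of the organ-restricted genes were above AOC1. CYSLTR2, a leukotriene receptor, fell by 3.45, F2RL1, a receptor cut by tryptase, by 2.12, and HPGD, which breaks prostaglandins down, by 1.53 on the log2 scale. F2RL1 and HPGD lost their calls under DESeq2 with the block (adjusted p of 0.097 and 0.11) and in all 4 leave-one-out fits (0.058 to 0.095 and 0.066 to 0.23). The 6 genes that did not pass included the histamine receptors HRH4, HRH2 and HRH1 at 1.02, 0.38 and -0.97 and the histamine methyltransferase HNMT at 0.62. The others were CYSLTR1, a leukotriene receptor, at -1.54 and PTGDR2, a prostaglandin D2 receptor, at -1.64.

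Of 11 tested cues that act on mast cells besides KITLG, 2 rose and 4 fell, where 8.35% and 27.6% of all tested genes did. CXCL12, a chemokine that draws mast cell precursors, was at 334 and 527 CPM in GFP-HI against 86.0 and 31.1 CPM in GFP-NEG, which is 2.88 in log2 units (adjusted p of 2.0e-04). CCL2 rose by 1.94, at 239 and 268 CPM in GFP-HI against 115 and 17.5 CPM in GFP-NEG. CCL5 fell by 4.26, IL10 by 2.57, TGFB1 by 1.92 and the adhesion molecule CADM1 by 1.62 on the log2 scale. Without GFP-NEG replicate 2 the calls of CXCL12 (2.28, adjusted p of 0.13), CCL2 (1.10, 0.57) and TGFB1 (-1.11, 0.43) were lost. CCL2 was at 3.90 without GFP-NEG replicate 1, and lost its call without GFP-HI replicate 1 (0.065) or 2 (0.11), as did TGFB1 (0.092 and 0.073). IL10 lost its call without GFP-HI replicate 1 (0.092). CADM1 lost its call under DESeq2 (0.086) and was at -0.54 without GFP-NEG replicate 1 (0.60). Leaving out GFP-HI replicate 2 put it at -0.86 (0.42). IL33, the ligand of IL1RL1, was at 16.0 and 16.8 CPM in GFP-HI against 22.4 and 11.5 CPM in GFP-NEG and did not pass.

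**Figure D3:**
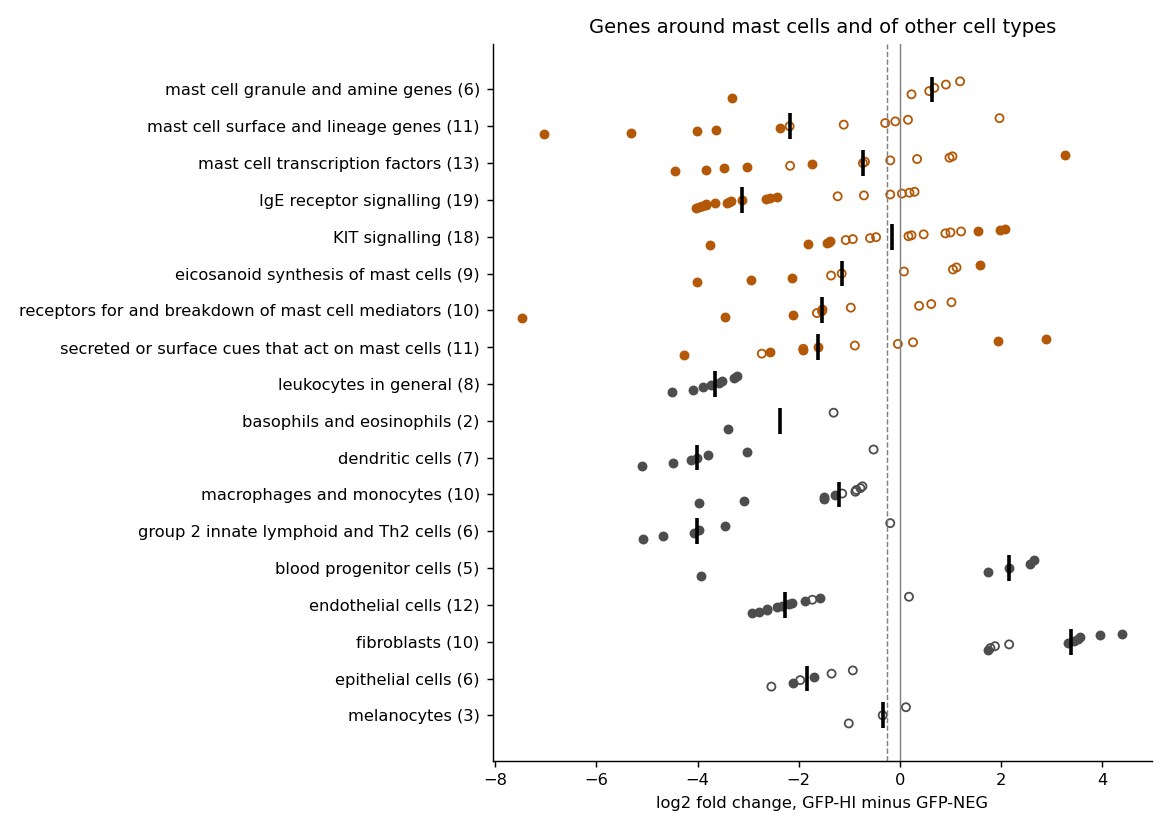
Log2 fold change (GFP-HI minus GFP-NEG) of every tested gene of the mast cell lists (orange) and of lists for other cell types (grey), filled where the gene passed the test, with the number tested in brackets, a black bar at each list's median and a dashed line at the median of all tested genes. The IgE receptor signalling list, at -3.12, lies near the general leukocyte list, at -3.66, and the KIT signalling list, at -0.15, near all genes.

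Genes of other cell types also moved between the fractions, in both directions. Beside the counts below stand 27.6% of all tested genes called lower and 8.35% called higher. All 8 general leukocyte genes fell, with a summed level of 250 and 589 CPM in GFP-HI against 3903 and 6276 CPM in GFP-NEG, and none of the 8 was at 0 in any library. PTPRC, which encodes CD45, was at 45.9 and 121 CPM in GFP-HI against 687 and 1214 CPM in GFP-NEG (-3.51 in log2 units, adjusted p of 1.6e-04). Of 10 fibroblast markers 7 rose and none fell, and PDGFRA was at 822 and 563 CPM in GFP-HI against 97.2 and 22.7 CPM in GFP-NEG. For endothelial PECAM1 the log2 difference was -1.88 (adjusted p of 0.0089). Of 10 macrophage and monocyte genes 5 fell, and of 6 tested genes of group 2 innate lymphoid and Th2 cells, which can carry KIT or HPGDS, 5 fell. Of 5 tested blood progenitor genes 4 rose, namely CD34, HLF, MECOM and PROM1, and MYB fell, at -3.94 on the log2 scale. The part of these cell types in the mast cell values was not tested.

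**Figure D4:**
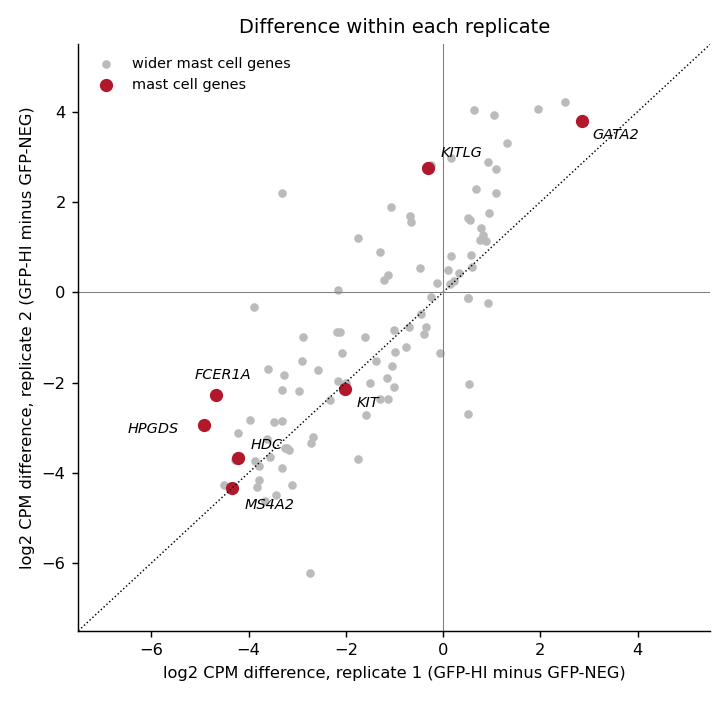
Difference in log2 CPM between GFP-HI and GFP-NEG within replicate 1 (horizontal) and replicate 2 (vertical), for the mast cell genes in red and the 97 tested genes of the wider lists in grey, with a dotted line of equality. MS4A2 lies on the line at -4.34 and -4.33, and KITLG has opposite signs at -0.30 and 2.75.

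The sign of the difference was shared by both replicates in 6 of the 7 mast cell genes, in 80 of the 97 wider genes and in 79.9% of all tested genes.

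Profiles over the 4 libraries were compared with those of 12777 genes that had a symbol and a mean of at least 1 CPM, by the root mean square distance of centred log2 CPM. With 4 points such likeness is a description only. Nearest to MS4A2 were CCR2, RASAL3 and IL10RA, at distances of 0.106 to 0.130. CCR2 was at 2.99 and 3.87 CPM in GFP-HI against 71.1 and 95.4 CPM in GFP-NEG. Close to KIT lay PLAGL2 and PCDH19 (0.0663 and 0.0837), and nearest to GATA2 were COL5A1, PAPPA and NBL1 (0.039 to 0.106). KITLG lay nearest to THBS4, PRKG1 and SEMA3C, with THBS4 at a distance of 0.021. It had 32.5 and 29.6 CPM in GFP-HI against 40.7 and 4.39 CPM in GFP-NEG. FCER1A was nearest to CACNB4, CTNNA3 and NR2E1, HDC to GPBAR1, TGFA and EDN1, and HPGDS to SLC7A11, BATF3 and CSTA, at distances between 0.0805 and 0.207.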

How the data were processed

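Raw counts, as deposited by the authors, came in 1 file per library. The submitters' processing notes name featureCounts, Subread 1.5.2 and DESeq2 1.37.6, and the aligner, strand setting and genome build are not given in the sources used here. A further deposited table holds the authors' own comparison as log2 fold changes and p-values, raw and adjusted, per the file headers. Its count columns equal the single tables, and 4 columns of normalized values per sample were not used. Of the identifiers, 834 were renamed with the symbol table provided.

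Counts were tested with edgeR 4.0.16 (quasi-likelihood F test, TMM scaling, filterByExpr, group as the only term, R 4.3.3). The filter kept 19682 genes. P-values were adjusted over all of them, with a threshold of 0.05. Standard errors were derived from the F statistic. The common dispersion was 0.239. The procedure was also run on simulated counts with as many genes raised as lowered and the same dispersion for every gene. In the real data 1643 genes were called higher and 5433 lower, an imbalance which that run does not cover. CPM were computed here from the counts and the TMM factors, and 1 count was worth 0.0453 to 0.0496 CPM in GFP-HI and 0.110 to 0.155 CPM in GFP-NEG. The alternatives were other scalings and filters, DESeq2 1.42.0, a replicate block, GFP-HI thinned to the GFP-NEG depth and each library left out in turn.

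All 8 genes were named where found, with up to 4 genes per wider list and direction that passed the test, by size, and LGR5, PTPRC, PDGFRA and PECAM1. Other names come from the lists and were picked after their values were seen. Some genes that this rule covers are not reported here. The genes and lists were chosen with earlier results of these data known. No separate culture or animal is stated beyond "biological replicate" in the titles, whereas the headings of the unused columns name 2 pigs with both fractions each, so the replicate number was taken to pair libraries of 1 animal. Under 2 of these headings the values are those of another library, which limits this pairing. Deviations of same-numbered libraries from their group means had a correlation of 0.16 across genes. P-values rest on dispersions estimated across genes in these 4 libraries, so a p-value or SE does not follow a gene's own spread alone. KIT, with close replicates, had an SE of 0.54, and KITLG, with distant GFP-NEG replicates, had 0.53. No sequence is shown because none was provided for these genes.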

Additional observations from a re-analysis of the deposited data

How the results depend on the processing

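The calls of KIT, FCER1A, MS4A2, HDC, HPGDS and GATA2, and the lack of one for KITLG, held under all 9 alternatives of scaling, filter, test, replicate block and depth, in the same direction. When same-numbered libraries were paired by a replicate block, a pairing that rests on headings which partly carry another library's values, 5 of the genes were lower and 1 higher as before. The block changed no call among the 7 genes and, of the 35 named genes of the wider lists, those of ADCYAP1 and LYL1. DESeq2 with the block, the only alternative added after the data were seen, called 3194 genes lower.

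Leaving out 1 library, which leaves a group with a single library assumed to vary like the other group, moved more. The mast cell genes called lower then numbered 3 to 5 and those called higher 1 to 2. HPGDS fell under the filter without GFP-NEG replicate 1. Over all genes, 216 to 1635 were called higher and 1575 to 4999 lower, and of the wider genes 1 to 11 were higher and 26 to 29 lower. Of the 35 named wider genes, 13, 14, 9 and 12 lost their call without GFP-HI replicate 1 and 2 and GFP-NEG replicate 1 and 2, in that order. KITLG ranged from -0.39 to 2.86, the first without GFP-NEG replicate 2.

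The number of all genes called higher was 1083 under upper-quartile scaling and 888 under library size alone (16.1% and 13.4% of the calls, against 23.2%), and 3576 were called lower with GFP-HI thinned to the GFP-NEG depth. These scalings moved the median of all genes by -0.33 and -0.43. Among the medians, 4 changed sign when a library was left out. The range was -0.59 to 0.03 for all genes, -0.19 to 0.06 for KIT signalling, -1.89 to 0.05 for macrophage genes and -1.92 to 0.48 for melanocyte genes, which were at 0.08 with a filter at 1 CPM. For these values the cause was not tested. The shallow GFP-NEG libraries limit what can be said of HDC and HPGDS.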

Other observations

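Ratios between mast cell genes within 1 library do not depend on how libraries are scaled. They were computed after the values were seen, with exact 95% binomial intervals that cover counting error only. HDC had 20.7 counts per 100 counts of MS4A2 in GFP-HI replicate 1 (interval 10.1 to 38.9) and 22.5 in GFP-NEG replicate 1 (17.5 to 28.7). In replicate 2 the values were 5.80 (1.54 to 15.5) and 5.83 (4.09 to 8.09). The ratio of these genes thus differed between the GFP-NEG replicates beyond counting error and was close between the fractions of a replicate, though the GFP-HI intervals are wide. IL9R per 100 MS4A2 counts was 13.8 and 8.61 in the GFP-HI and GFP-NEG libraries of replicate 1 and 13.0 and 12.0 in those of replicate 2, with overlapping intervals within each replicate.

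KIT did not keep this ratio. It had 490 (368 to 661) and 336 (256 to 447) counts per 100 of MS4A2 in the GFP-HI replicates, and 93.3 (80.2 to 109) and 72.1 (63.9 to 81.3) in the GFP-NEG replicates. IL1RL1 behaved alike, at 348 and 265 against 82.5 and 66.9. FCER1A was at 117 (81.4 to 169) and 146 (127 to 167) in the fractions of replicate 1, at 145 (131 to 160) in GFP-NEG replicate 2, and at 620 (480 to 812) in GFP-HI replicate 2, so that 1 library stood apart from the other 3.

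Set against PTPRC, MS4A2 had 57.2 (43.1 to 74.6) and 28.3 (21.9 to 35.9) counts per 1000 in GFP-HI, and 81.4 (72.9 to 90.6) and 58.9 (54.3 to 63.7) in GFP-NEG. KIT was at 280 and 95 per 1000 in GFP-HI, against 75.9 and 42.4.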
